A study of Mus musculus with 6 samples.

Results

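The genes described here are 42 genes of mitosis and the spindle, chosen by name, of which 41 were measured among 18194 genes on the arrays of the series. Each gene is represented by the probe set with the highest mean log2 intensity over the 6 arrays among the probe sets that carry its symbol alone in the platform annotation. The cyclin B1 gene Ccnb1 had no such probe set and was not analysed here. The rule for choosing them was their function in cell division, and the choice was made with earlier results of these data known. A log2 intensity is the base 2 logarithm of the brightness of a probe set, so a difference of 1 between groups is a 2-fold difference.

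The series compared sorted leukaemic progenitor cells of 2 genotypes in mice. The N1-IC group (n = 3) came from cells that carried MLL-AF9 and ROSAwt/CreERT2 together with EF1αwt/lsl-N1-IC, in which tamoxifen-activated Cre recombinase is meant to switch on the intracellular domain of Notch1, and all 3 samples were labelled female. The WT group (n = 3) came from cells that carried MLL-AF9 and ROSAwt/CreERT2 with EF1αwt/wt, and all 3 samples were labelled male, so genotype and sex cannot be told apart. MLL-AF9, a fusion oncogene of acute myeloid leukaemia, was introduced into cKit-positive donor cells of both groups with a vector that also encodes a yellow fluorescent protein (YFP), and both groups received tamoxifen. For each recipient, a lethally irradiated wild-type mouse aged 12 weeks, 50000 such cells were transplanted with 250000 wild-type support marrow cells. Tamoxifen was injected 2 times at 0.2 mg per g of body weight from 4 weeks after transplantation, and cells were sorted 6 days after the last injection. The sort, named LGMP in the labels, kept marrow cells positive for YFP, cKit, CD34 and FcgRII/III and without lineage markers or Sca1. The labels do not say whether a sample is 1 recipient or a pool, and the p-values below measure the spread between these samples.

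The array medians lay between 49.6 and 51.0 intensity units. Genes of the sort gate were bright on every array, with Kit at 10.42 to 10.68 in N1-IC and 10.23 to 10.76 in WT, and Fcgr3 at 12.60 to 12.96 in N1-IC and 12.90 to 13.12 in WT (log2 intensities). Cd34 was lower on every N1-IC array, at 10.05 to 11.28, with 11.33 to 11.69 in WT (limma adjusted p = 0.618). The Notch target Nrarp had log2 intensities of 8.01, 9.74 and 11.33 in N1-IC and 7.22, 6.96 and 6.41 in WT, with no overlap (limma adjusted p = 0.618). It had the largest log2 fold change, 2.83, of the 5 genes listed as Notch targets. Their median was 0.35, with the N1-IC mean higher for 3 (60%, against 52.6% of all genes) and lower for 2. Notch1 itself had a log2 fold change of -0.0041, and whether its probe set covers the induced domain was not analysed here. WT replicate 2 went partly against its label, with the female-specific RNA Xist at 10.70 log2 units, against 12.73 to 12.82 in N1-IC and 5.64 and 5.42 on the other WT arrays. The Y-linked gene Eif2s3y went with the label there, at 10.34, against 2.94 to 3.46 in N1-IC and 11.31 and 11.26 on the other WT arrays. The same array had the highest mean of 11 erythroid genes (9.36, against 5.85 to 6.67 in N1-IC and 5.66 and 6.62 in the other WT samples). WT replicate 1 had the lowest mean of 12 late granulocyte genes (7.66, against 9.88 to 10.34 in N1-IC and 10.15 and 9.72 in the other WT samples). Results on the members are therefore also given without single arrays.

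Mitosis begins when the kinase Cdk1, bound to A- and B-type cyclins, is freed of inhibitory phosphates, and Polo and Aurora kinases then drive spindle assembly. The spindle checkpoint holds anaphase back until every kinetochore, the protein plate on a centromere, is attached to microtubules. The anaphase-promoting complex (APC/C), a ubiquitin ligase, then marks securin and cyclin B for destruction, and motor and scaffold proteins pinch the cell apart. Many of these genes are transcribed mainly in G2 and M phase, so that their RNA in a population tracks how many cells are dividing. In RNA of a bulk sort, fewer dividing cells and less RNA per dividing cell cannot be told apart.

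Cell cycle promoters of this class are known for a cell cycle homology element, with the core TTTGAA, through which the MuvB complexes act, and for CCAAT boxes bound by NF-Y. RefSeq promoter windows (GRCm38.p6, from 250 bases before to 50 bases after a gene start) were given for 35 of the 42 genes, in 38 windows. On either strand, TTTGAA was found in 29 of these 38 windows (76.3%), against 17.9% of all 32851 windows. CCAAT was found in 31 of 38 (81.6%), against 37.4% of all windows, and both in 26 (68.4%), against 6.95%. Within the stretch from 100 bases before to 50 after the start, TTTGAA was in 27 of 38 windows (71.1%), against 8.01% of all. A match is a description of the letters and not a binding site. The promoters below are a selection from the members followed array by array in the text, and each has a TTTGAA match. Among such members not shown, Pttg1 and Mad2l1 had neither motif in their windows. Cdc25b and Bub1 had CCAAT without TTTGAA, and Ect2, Espl1, Cenpa and Kif4 had both. The stretches shown run from 120 bases before the start (150 for Mki67) to 50 bases after it, 5′ to 3′ on the gene's strand. TTTGAA and CCAAT, or their reverse complements, are in capitals. No base was shared by 2 of the marked matches.
Ccnb2 (chr9:70421505-70421674, minus strand): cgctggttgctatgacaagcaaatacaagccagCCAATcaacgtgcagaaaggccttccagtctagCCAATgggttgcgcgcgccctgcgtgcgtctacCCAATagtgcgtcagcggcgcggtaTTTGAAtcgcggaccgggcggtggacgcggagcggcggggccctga
Plk1 (chr7:122159315-122159484, plus strand): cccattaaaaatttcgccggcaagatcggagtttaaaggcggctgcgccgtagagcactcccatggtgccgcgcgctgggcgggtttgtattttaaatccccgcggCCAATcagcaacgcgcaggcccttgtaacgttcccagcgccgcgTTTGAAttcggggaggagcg
Cenpf (chr1:189688037-189688206, minus strand): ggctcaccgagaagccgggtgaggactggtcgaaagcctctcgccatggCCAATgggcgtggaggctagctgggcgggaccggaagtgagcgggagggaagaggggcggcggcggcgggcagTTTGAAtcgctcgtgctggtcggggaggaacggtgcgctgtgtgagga
Kif23 (chr9:61946750-61946919, minus strand): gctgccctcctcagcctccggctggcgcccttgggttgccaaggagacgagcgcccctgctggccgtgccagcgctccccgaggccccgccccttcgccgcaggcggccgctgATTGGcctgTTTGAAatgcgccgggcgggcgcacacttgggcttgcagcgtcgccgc
Mki67 (chr7:135716330-135716529, minus strand): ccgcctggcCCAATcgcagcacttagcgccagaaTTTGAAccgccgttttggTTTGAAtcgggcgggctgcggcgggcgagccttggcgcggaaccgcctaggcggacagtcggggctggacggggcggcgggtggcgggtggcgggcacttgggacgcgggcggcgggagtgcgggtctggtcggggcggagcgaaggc
Kif2c (chr4:117178723-117178892, minus strand): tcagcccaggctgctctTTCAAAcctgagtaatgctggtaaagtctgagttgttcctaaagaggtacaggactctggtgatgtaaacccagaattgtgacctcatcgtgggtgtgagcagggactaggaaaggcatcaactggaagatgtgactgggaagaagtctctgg
The B-type cyclin gene Ccnb2 had 3 CCAAT matches and 1 TTTGAA match in the stretch shown, and Plk1, Cenpf and Kif23 had 1 of each. Mki67 had 2 TTTGAA matches and 1 CCAAT match. Kif2c had 1 TTTGAA match on the reverse strand and 0 CCAAT matches.

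Setting N1-IC against WT asks whether the mitotic genes differed between the genotypes after tamoxifen. None of the 41 members passed a Benjamini-Hochberg adjusted p under 0.05 in the limma fit over all genes, where 1 of 18194 genes (0.0055%) passed. That gene was the Y-linked Eif2s3y (adjusted p = 0.00229), which differs with the labelled sex. In N1-IC the mean was higher for 22 members and lower for 19, with a median log2 fold change of 0.0037, and over all genes tested the median was 0.012. At an unadjusted p under 0.05 there was 1 member, Kif2c, where 7.98% of all genes had such a p. Kif2c was also the 1 member of 41 whose groups did not overlap, where 14.8% of all genes had groups that did not, and 8.32% were, like Kif2c, higher without overlap. The smallest adjusted p of a member was 0.618.

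The 95% interval of the log2 fold change lay between -1 and 1 for 37 of 41 members, so that a 2-fold difference lay outside it, or 90.2%, near the 87.4% of all genes. The exceptions were Kif2c, Espl1, Cenpf and Mki67. For 19 members (46.3%) the interval lay between -0.5 and 0.5, against 53.3% of all genes, and the median standard error was 0.187 for the members and 0.135 for all genes. A p that misses the threshold does not show that the genotypes are alike, and these intervals give the sizes that the arrays leave possible.

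**Figure D1:**
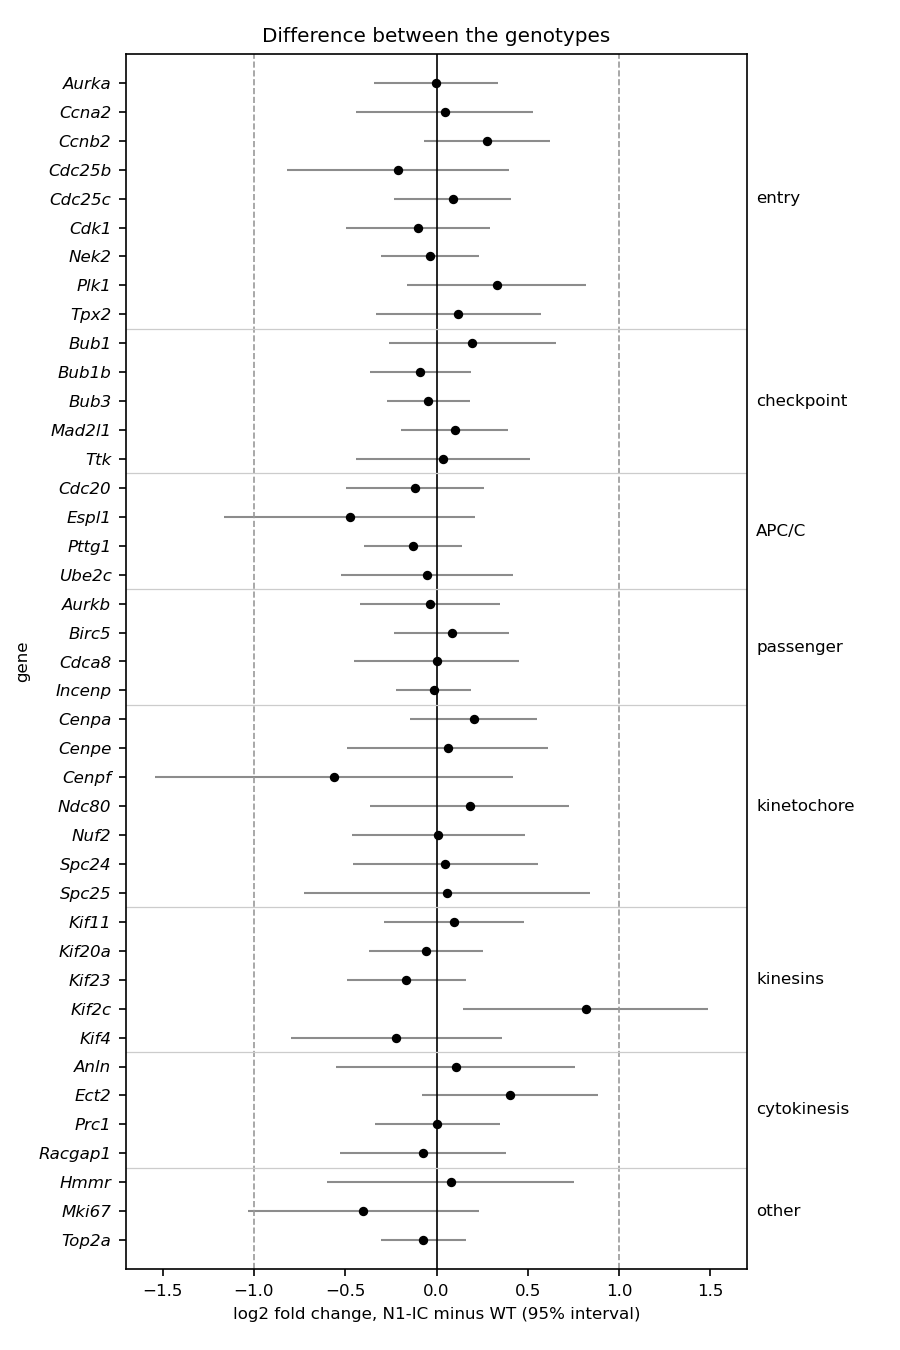
Log2 fold change of each of the 41 members, N1-IC minus WT (x axis, log2 units), as points with limma's 95% interval as bars, with genes down the page in groups by role. The dashed lines mark -1 and 1. The interval of Kif2c (0.14 to 1.49) is the one that leaves out 0, and those of Espl1, Cenpf, Mki67 and Kif2c reach past a dashed line.

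The clearest pattern among the members was between the arrays of a group and not between the genotypes. In N1-IC, replicate 3 had the lowest value of the 3 arrays for 37 of 41 members (90.2%), against 33.4% of all genes. In WT, replicate 1 had the lowest value for 37 of 41 members (90.2%), against 30.7% of all genes. For 35 members both held at once, as they did for 10.8% of all genes. The highest value lay in N1-IC replicate 2 for 30 of 41 members, against 35.6% of all genes, and in WT replicate 3 for 30 of 41, against 33.8%. The mean log2 intensity of the members was 10.20, 10.35 and 9.93 on the N1-IC arrays and 9.93, 10.21 and 10.31 on the WT arrays, so the lowest arrays of the 2 groups were level. Over all genes the arrays had means of 7.24 to 7.27 in N1-IC and 7.24 to 7.27 in WT. This order of arrays was noticed in the data and is given as a description. The members share these arrays and are not independent of each other.

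**Figure D2:**
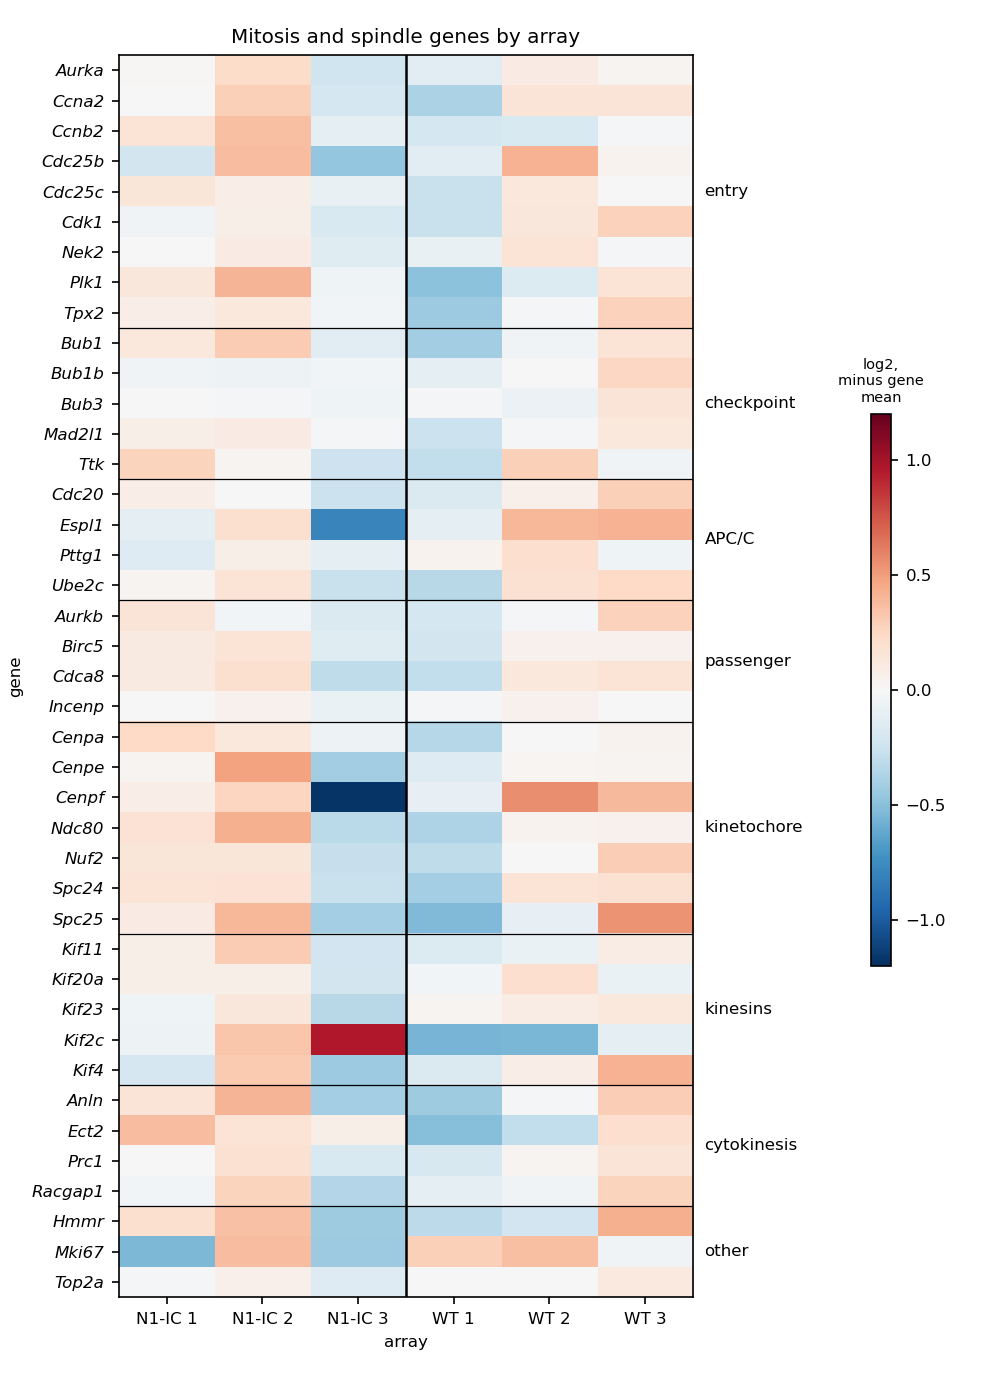
Log2 intensity of the 41 members (rows, in groups by role) on the 6 arrays (columns), minus the mean of the gene over the 6 arrays, as colour from -1.2 (blue) to 1.2 (red). N1-IC replicate 3 and WT replicate 1 are blue in nearly every row, and Kif2c is red in N1-IC replicate 3.

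Among the genes of mitotic entry 9 of 10 were measured and 0 passed, the N1-IC mean being higher for 5 and lower for 4. Cdk1, the kinase that starts mitosis, had log2 intensities of 11.39, 11.50 and 11.25 in N1-IC and 11.17, 11.57 and 11.71 in WT. The N1-IC values all lay inside the WT range, with a log2 fold change of -0.10 ± 0.16 (moderated standard error). Its partner cyclin B2, from Ccnb2, was at 11.10, 11.29 and 10.83 in N1-IC and 10.72, 10.75 and 10.92 in WT. N1-IC replicate 3 lay within the WT values and the other N1-IC arrays above them, and the log2 fold change was 0.28 ± 0.14 (limma adjusted p = 0.631). With 1 array left out, the value ran from 0.17 without N1-IC replicate 2 to 0.40 without N1-IC replicate 3. Plk1, the Polo kinase that promotes entry and spindle assembly, was at 8.58, 8.85 and 8.39 in N1-IC and 7.95, 8.28 and 8.60 in WT. Its groups overlapped through WT replicate 3, and its log2 fold change was 0.33 ± 0.20 (adjusted p = 0.654). With 1 array left out it ran from 0.16 without WT replicate 1 to 0.49 without WT replicate 3. Cdc25b, a phosphatase that removes the inhibitory phosphates of Cdk1, was at 10.22, 10.80 and 9.97 in N1-IC and 10.30, 10.85 and 10.47 in WT. It was high in replicate 2 of both genotypes and had a log2 fold change of -0.21 ± 0.25. Its values with 1 array left out ran from -0.45 without N1-IC replicate 2 to -0.032 without N1-IC replicate 3.

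Cdc25c, a second phosphatase of Cdk1, had a log2 fold change of 0.090 ± 0.13, and Ccna2, the cyclin of S phase and mitotic entry, one of 0.045 ± 0.20. Aurka, the Aurora kinase of the spindle poles, had means of 9.63 ± 0.228 in N1-IC and 9.63 ± 0.117 in WT (SD, n = 3 each). Its activator Tpx2 had a log2 fold change of 0.12 ± 0.19, and the centrosome kinase gene Nek2 one of -0.035 ± 0.11. For all 5 of these genes the groups overlapped, and the lowest arrays were N1-IC replicate 3 and WT replicate 1.

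All 5 spindle checkpoint genes were measured and 0 passed, with N1-IC means above WT for 3 and below for 2. Bub1, a kinase that recruits checkpoint proteins to the kinetochore, was at 9.68, 9.86 and 9.41 in N1-IC and 9.13, 9.51 and 9.72 in WT, a log2 fold change of 0.20 ± 0.19. The groups overlapped, and the leave-out values ran from 0.036 without WT replicate 1 to 0.33 without WT replicate 3. Mad2l1 encodes Mad2, which sequesters Cdc20, and it was at 11.04, 11.07 and 10.95 in N1-IC and 10.72, 10.95 and 11.10 in WT. The N1-IC values lay within the WT range, with a log2 fold change of 0.099 ± 0.12. Bub1b, which encodes BubR1, had a log2 fold change of -0.089 ± 0.11 and was one of the 2 members highest in N1-IC replicate 3, at 9.84 against 9.83 and 9.80. Bub3, the partner of Bub1 and BubR1, had -0.046 ± 0.093, and the kinase gene Ttk, which starts checkpoint signalling, had 0.035 ± 0.20.

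For each of the 4 genes of anaphase onset the N1-IC mean was the lower one, and 0 passed. Cdc20, which activates the APC/C, was at 10.25, 10.17 and 9.91 in N1-IC and 9.99, 10.23 and 10.46 in WT. The groups overlapped, with a log2 fold change of -0.12 ± 0.16 and leave-out values from -0.24 without WT replicate 1 to -0.0019 without WT replicate 3. Espl1, the gene of separase, the protease that cuts cohesin, was at 7.01, 7.32 and 6.33 in N1-IC and 7.02, 7.52 and 7.55 in WT. N1-IC replicate 3 stood lowest, below the median gene of that array (6.91), and the log2 fold change was -0.48 ± 0.28 (limma adjusted p = 0.649). Its values with 1 array left out ran from -0.69 without N1-IC replicate 2 to -0.20 without N1-IC replicate 3. Pttg1, the gene of securin, which restrains separase, was at 11.57, 11.80 and 11.61 in N1-IC and 11.77, 11.92 and 11.68 in WT. It was one of the members that did not follow the common order, being lowest in N1-IC replicate 1 and WT replicate 3, and its log2 fold change was -0.13 ± 0.11. Ube2c, the ubiquitin-conjugating enzyme of the APC/C, had -0.052 ± 0.19.

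The 4 genes of the chromosomal passenger complex, which corrects faulty attachments, were split evenly in direction, and 0 passed. Its kinase gene Aurkb was at 10.61, 10.41 and 10.27 in N1-IC and 10.24, 10.44 and 10.73 in WT. The 2 ranges nearly coincided, with a log2 fold change of -0.035 ± 0.16. Birc5, which encodes survivin, had 0.084 ± 0.13, the scaffold gene Incenp -0.015 ± 0.084 and Cdca8, which encodes borealin, 0.0013 ± 0.19. Cdca8 had the same mean in both groups to 2 decimals, 11.92 ± 0.265 in N1-IC and 11.92 ± 0.255 in WT (SD, n = 3 each).

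Of 7 centromere and kinetochore genes 0 passed, and 6 had their higher mean in N1-IC. Cenpa, the histone variant that marks the centromere, was at 10.85, 10.74 and 10.55 in N1-IC and 10.26, 10.61 and 10.65 in WT, a log2 fold change of 0.203 ± 0.14 (limma adjusted p = 0.672). The groups overlapped, and the leave-out values ran from 0.081 without WT replicate 1 to 0.28 without N1-IC replicate 3. Ndc80, the microtubule-binding subunit of the outer kinetochore, was at 8.61, 8.86 and 8.10 in N1-IC and 8.06, 8.48 and 8.48 in WT. N1-IC replicate 3 was as low as WT replicate 1 to within 0.1, and the log2 fold change was 0.18 ± 0.22, with leave-out values from 0.015 without N1-IC replicate 2 to 0.39 without N1-IC replicate 3. Its partners in the complex, Nuf2, Spc24 and Spc25, had 0.011, 0.049 and 0.058, and the kinetochore motor gene Cenpe had 0.062 ± 0.23. Spc25 was at 10.08, 10.38 and 9.57 in N1-IC and 9.45, 9.88 and 10.52 in WT, a range of 1.07 over the 6 arrays beside a difference of 0.058 between the groups.

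Cenpf, a large protein of the outer kinetochore that accumulates in G2, was the kinetochore gene with a lower mean. It was at 7.40, 7.58 and 6.14 in N1-IC and 7.22, 7.87 and 7.71 in WT. N1-IC replicate 3 lay far below the other 5 arrays and below the median gene of its own array (6.91). The log2 fold change was -0.56 ± 0.40 (limma adjusted p = 0.675). The leave-out values ran from -0.83 without N1-IC replicate 2 to -0.11 without N1-IC replicate 3. Both lower-intensity probe sets of Cenpf had lower means in N1-IC too, and their groups overlapped.

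Kif2c, a kinesin that takes microtubules apart at the centromere, was the member with the largest difference. By its brightest probe set it was at 8.97, 9.37 and 9.998 in N1-IC and 8.48, 8.49 and 8.92 in WT. Each N1-IC array lay above each WT array, and N1-IC replicate 3, the lowest N1-IC array for most members, was the highest here. The log2 fold change was 0.82 ± 0.28, or 1.76-fold, with an unadjusted p of 0.0247 and a limma adjusted p of 0.618. It was 0.54 to 1.05 with any single array removed, and its unadjusted p was above 0.05 without WT replicate 1 and without WT replicate 2. The other probe sets did not show this difference. The second was at 7.33, 7.73 and 7.36 in N1-IC and 7.78, 7.39 and 7.48 in WT, the third had each N1-IC array below each WT array and a log2 fold change of -0.39 ± 0.17, and the dimmest had -0.0021. The brightest probe set has the suffix _x_at, which Affymetrix gives to sets whose probes can also match other transcripts. With such sets left out, a setting chosen after the values were seen, Kif2c had -0.074.

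The remaining 4 kinesin genes had log2 fold changes between -0.22 and 0.096. Kif11, the motor that pushes the spindle poles apart, was at 10.85, 11.09 and 10.55 in N1-IC and 10.62, 10.70 and 10.87 in WT, with a log2 fold change of 0.096 ± 0.16. Kif23, a motor of the central spindle, was at 9.16, 9.35 and 8.89 in N1-IC and 9.25, 9.31 and 9.34 in WT, a log2 fold change of -0.16 ± 0.13 with leave-out values from -0.27 without N1-IC replicate 2 to -0.041 without N1-IC replicate 3. The groups of both genes overlapped. Kif4, a chromosome-bound motor and the 1 member on chromosome X, was at 7.49, 8.003 and 7.25 in N1-IC and 7.52, 7.77 and 8.11 in WT. Its groups overlapped as well, with a log2 fold change of -0.22 ± 0.24 and leave-out values from -0.43 without N1-IC replicate 2 to -0.054 without N1-IC replicate 3. Kif20a, a motor needed for cytokinesis, had -0.056 ± 0.13.

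**Figure D3:**
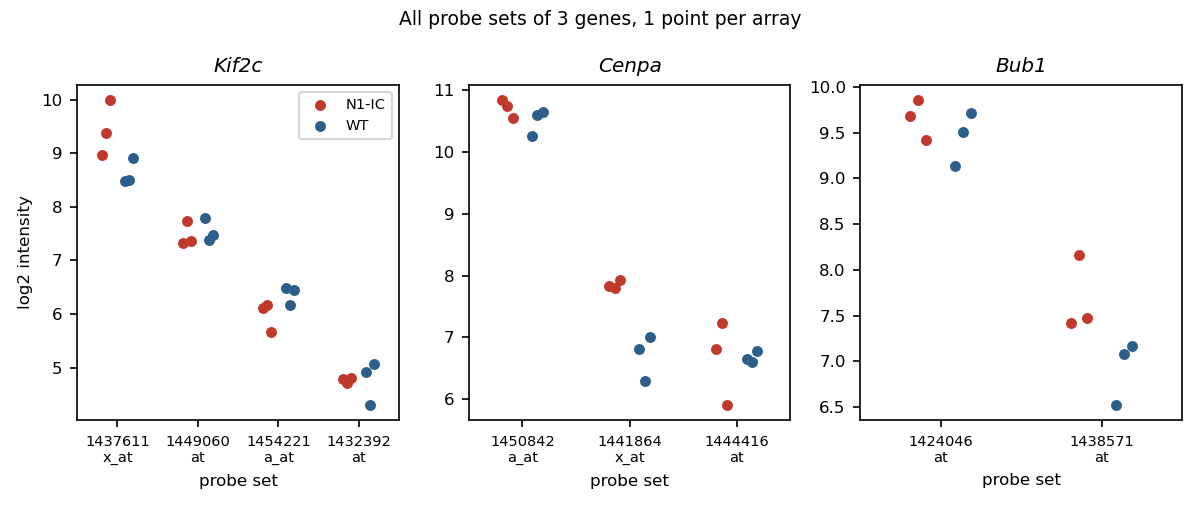
Log2 intensity (y axis) of every probe set (x axis, brightest on the left) of Kif2c, Cenpa and Bub1, with 1 point per array, N1-IC in red and WT in blue. For each gene 1 probe set has all N1-IC points above all WT points, and the other probe sets of the gene do not.

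In cytokinesis 3 of 4 genes had their higher mean in N1-IC and 0 passed. Ect2, the exchange factor that activates RhoA at the division site, was at 11.69, 11.49 and 11.39 in N1-IC and 10.81, 11.02 and 11.52 in WT. WT replicate 3 overlapped with the N1-IC values, and the log2 fold change was 0.403 ± 0.20 (limma adjusted p = 0.626). With 1 array left out it ran from 0.25 without WT replicate 1 to 0.60 without WT replicate 3, where the limma adjusted p of 0.305 was the smallest of any member in any setting. Prc1, which bundles the microtubules of the central spindle, was at 11.79, 11.96 and 11.59 in N1-IC and 11.59, 11.81 and 11.93 in WT. Its group means were equal to 2 decimals, at 11.78 each. The scaffold gene Anln had a log2 fold change of 0.105 ± 0.27, and Racgap1, the partner of Kif23, had -0.076 ± 0.19.

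Mki67, which encodes the proliferation antigen Ki-67 that coats mitotic chromosomes, was at 10.46, 11.36 and 10.56 in N1-IC and 11.28, 11.35 and 10.96 in WT. N1-IC replicates 1 and 3 lay below all WT arrays while N1-IC replicate 2 lay at the level of the highest WT array, and the log2 fold change was -0.40 ± 0.26 (limma adjusted p = 0.665). The leave-out values ran from -0.68 without N1-IC replicate 2 to -0.23 without N1-IC replicate 1. Top2a, the topoisomerase that untangles sister chromatids, was at 11.64, 11.72 and 11.50 in N1-IC and 11.65, 11.66 and 11.77 in WT, a log2 fold change of -0.073 ± 0.096. The groups overlapped. Hmmr, a spindle assembly factor, had 0.078 ± 0.28 and ranged over 0.85 log2 units across the 6 arrays.

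The members had 92 probe sets in all, and 26 of the 41 had more than 1. In 9 of these 26 genes all probe sets had the same sign of log2 fold change. Among the 51 probe sets not used above, the N1-IC arrays all lay above the WT arrays in 4 (7.84%) and all below them in 5 (9.80%). Over all 16764 probe sets that did not represent a gene these shares were 6.7% and 7.6%, so the counts for the members were near the background. The single sets that follow were picked after their values were seen. One set of Cenpa with the suffix _x_at was at 7.84, 7.80 and 7.92 in N1-IC and 6.81, 6.29 and 7.004 in WT, a log2 fold change of 1.15 ± 0.19 (limma adjusted p = 0.518 over all named probe sets). The dimmer set of Bub1 had 0.76 ± 0.26 and a dimmer set of Top2a had -0.62 ± 0.19, with limma adjusted p of 0.622 each. This set of Top2a was at 5.57, 5.84 and 5.24 in N1-IC and 5.96, 6.35 and 6.21 in WT. These values lie below the median gene of each array, and whether they exceed background is unknown. The brighter sets of Cenpa, Bub1 and Top2a overlapped between the groups, so that which set stands for a gene decided whether its groups separated.

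The wider mitotic machinery was examined in 6 further lists with 149 measured genes. The N1-IC mean was higher for 70 of these and lower for 79, 0 passed the adjusted threshold, and the median log2 fold change was -0.012. At an unadjusted limma p under 0.05, 5 of the 149 were higher and 7 lower, where 4.14% of all genes were higher and 3.84% lower. N1-IC replicate 3 was lowest of its group for 99 of 149 genes (66.4%), and WT replicate 1 was lowest of its group for 86 (57.7%), beside 90.2% of the members for each. The difference from the members was not tested. Among the 15 transcription regulators of G2 and M phase, such as Foxm1 and Mybl2, N1-IC replicate 3 was lowest for 5 (33.3%), against 33.4% of all genes, and WT replicate 1 was lowest for 9 (60.0%), against 30.7% of all genes.

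Of 41 other kinesin and spindle genes 3 were higher and 3 lower at an unadjusted limma p under 0.05. Among all genes 4.14% were higher and 3.84% lower at this p. Each of these kinesin and spindle genes had a limma adjusted p of 0.618. Kif15, a spindle motor that works beside Kif11, was at 4.91, 5.00 and 4.85 in N1-IC and 4.33, 4.23 and 4.50 in WT, a log2 fold change of 0.57 ± 0.105. These values lie below the median gene of each array (6.88 to 6.91 in N1-IC and 6.90 to 7.03 in WT), and whether they exceed background is unknown. Haus4, a subunit of the augmin complex that branches spindle microtubules, had -0.29 ± 0.085, the kinase gene Melk -0.29 ± 0.091 and the microtubule depolymerase gene Kif2a 0.28 ± 0.090. In condensin and cohesin, with 19 genes, the condensin subunit gene Ncapd2 had -0.28 ± 0.108 and the cohesin regulator gene Pds5a 0.30 ± 0.11. Among 23 further mitotic kinases, phosphatases and their inhibitors, Ensa, which encodes an inhibitor of the phosphatase PP2A, had 0.37 ± 0.15.

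In the list of 21 other checkpoint and APC/C genes the N1-IC mean was lower for 15 and higher for 6, with a median log2 fold change of -0.13. For 7 of the 21 (33.3%) every N1-IC array lay below every WT array, where 6.52% of all genes did, and 0 had the opposite separation. No other of the 6 lists had as many genes below, and this list is followed up because of its values. Over the 6 lists together the genotypes separated fully for 21 of 149 genes, with N1-IC above for 7 and below for 14. Among the 18194 genes tested 14.8% separated in this way, 8.32% above and 6.52% below. The APC/C scaffold gene Anapc5 was at 12.34, 12.30 and 12.27 in N1-IC and 12.57, 12.60 and 12.42 in WT, a log2 fold change of -0.22 ± 0.090. Anapc10, which helps the complex bind its substrates, had -0.27 ± 0.107, and Anapc11, its catalytic RING subunit, had -0.29 ± 0.110. None passed, with a limma adjusted p of 0.618 for each of these 3. The other 30 kinetochore genes had 10 higher and 20 lower means, with a median of -0.056, and 0 at an unadjusted p under 0.05.

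DNA replication genes, transcribed mainly at the start of S phase, shared the lowest array of the members in WT but less so in N1-IC. The highest array of a group differed from that of most members. It was WT replicate 2 for 21 of 32 replication genes (65.6%), while WT replicate 3 was highest for 73.2% of the members. In N1-IC it was replicate 1 for 17 of 32 (53.1%), while replicate 2 was highest for 73.2% of the members. WT replicate 1 was lowest of its group for 28 of 32 replication genes (87.5%), and N1-IC replicate 3 for 15 of 32 (46.9%), against 90.2% of the members for each. Together they averaged 10.92, 10.85 and 10.83 on the N1-IC arrays and 10.78, 11.08 and 10.98 on the WT arrays, so that the N1-IC arrays lay within the WT range. Higher N1-IC means were found for 11 of the 32 genes and lower ones for 21, with a median log2 fold change of -0.072 and 0 past the adjusted threshold. The difference between the lists was not tested.

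**Figure D4:**
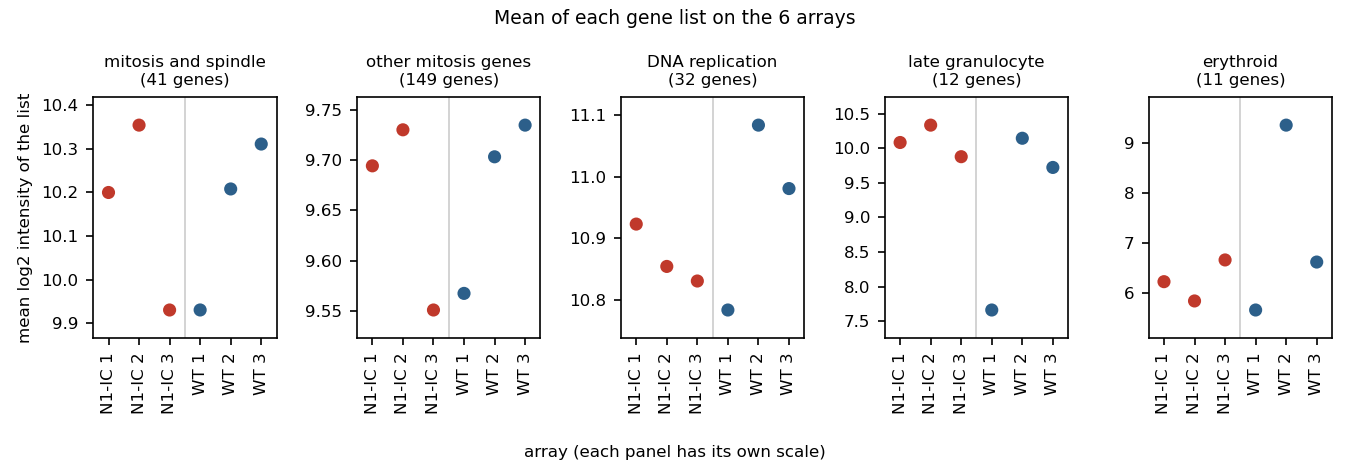
Mean log2 intensity (y axis, its own scale in each panel) of 5 gene lists on the 6 arrays (x axis), N1-IC in red and WT in blue, 1 point per array. The members are at 9.93 in both N1-IC replicate 3 and WT replicate 1, late granulocyte genes are low in WT replicate 1 alone, and erythroid genes are high in WT replicate 2 alone.

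Marker lists of other cells differed from each other in their order of arrays. Late granulocytes no longer divide, and of their 12 measured genes 11 had a higher mean in N1-IC, with a list mean of 10.09, 10.34 and 9.88 on the N1-IC arrays and 7.66, 10.15 and 9.72 on the WT arrays. As for the members, WT replicate 1 and N1-IC replicate 3 had the lowest list mean of their groups. WT replicate 1 was lowest of its group for 11 of the 12 genes (91.7%), against 30.7% of all genes. N1-IC replicate 3 was lowest of its group for 6 of the 12 (50%), against 33.4% of all genes, and its list mean lay within the range of the other WT arrays. Camp and Mmp9, which are among the defining genes of this list, were at 9.11 and 4.14 in WT replicate 1 and at 13.01 and 8.78 in N1-IC replicate 3. They are given here for these arrays only. Mast cell and basophil genes had means of 7.02, 7.98 and 7.97 in N1-IC and 7.51, 8.39 and 6.67 in WT. The 7 monocyte and macrophage genes had means of 10.46, 10.59 and 10.24 in N1-IC and 10.61, 10.99 and 10.42 in WT. The 9 lymphoid genes had means of 6.51, 6.36 and 6.40 in N1-IC and 6.47, 6.64 and 6.38 in WT. The part of these cells in the values of the members was not tested.

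The direction of the members as a whole depended on single arrays. Without WT replicate 1 the median log2 fold change of the members was -0.091, with 9 of 41 higher, and without N1-IC replicate 3 it was 0.13, with 29 of 41 higher. Without N1-IC replicate 2 it was -0.080, with 12 higher, and without WT replicate 3 it was 0.082, with 29 higher. In each of these fits 0 members passed. Within a group the SD of a member had a median of 0.232 in N1-IC and 0.244 in WT, against 0.137 and 0.169 over all genes tested, and the median size of a member's log2 fold change was 0.090, against 0.14 over all genes.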

How the data were processed

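RNA of 6 samples (5 ng each, amplified and biotin-labelled per the labels' protocols) was hybridised to Affymetrix arrays. The authors deposited 1 linear intensity per probe set and array, from 3.60 to 24044. RMA made them, per the submitters' processing notes (version not given in the sources used here). Once sorted, the values of each array differed from those of the mean array by at most 0.103 log2 units, so differences in total signal had been removed before deposit. The intensities were log2-transformed with no offset. Scanner files and detection calls were not used here, so the signal over background is unknown, and precision is limited by how few arrays there are.

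A single gene symbol was given for 34958 of 45101 probe sets, several for 932 and none for 9211. The fit used R 4.3.3 and limma 3.58.1 (lmFit, eBayes) with adjustment over 18194 genes, and was tested on simulated data. Intervals and standard errors are limma's. The design provided for a log2 step if the values were linear. All members are named, and array values are given for the 14 with the smallest p and for 11 chosen to represent roles, of which Ccnb1 was not measured. Genes of the 6 other mitosis lists are named at an unadjusted p under 0.05, at most 4 per list, and marker genes by defining role. The members and lists were chosen with earlier results of these data known. Alternatives were other priors, weights, scalings, an offset of 16, filters, probe set choices, a replicate block, single arrays left out, X- and Y-linked genes left out and a threshold of 0.1. Chromosomes and promoters are from RefSeq (GRCm38.p6).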

Additional observations from a re-analysis of the deposited data

How the results depend on the processing

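The number of members past the threshold was 0 in the fit reported and in each of the 19 alternatives run, where the smallest adjusted p of a member lay between 0.305 and 0.837. The median log2 fold change of the members lay between -0.091 and 0.13 with 1 array left out and between -0.037 and 0.030 in the other settings, and that of the other mitosis lists lay between -0.070 and 0.036 with 1 array left out. The median of all genes moved by less than 0.1 in every setting. Of the 41 members 16 kept their sign with any 1 array left out and 14 in all settings. Sign changes were most frequent without WT replicate 1, with 13 members, each with a log2 fold change under 0.12 in size over all arrays. Over all genes the number past the threshold was 1 in the fit reported, 3 with a mean-variance trend, 2 with array weights, 2 when genes under the median level were dropped, 5 when probe sets were averaged per gene, 4 at a threshold of 0.1, and 0 when X- and Y-linked genes were removed. Leaving out 1 array gave 0 to 5, with 0 without WT replicate 3, 2 without N1-IC replicate 1, 3 without N1-IC replicate 2 and 5 without WT replicate 2. Same-numbered arrays of the groups had deviations that correlated at 0.0093, 0.061 and -0.11 over genes. With 3 arrays per group, these values cannot show whether same-numbered samples were paired. The replicate block gave 0 genes and 0 members past the threshold. The cause of these changes was not tested. The number of arrays limits what could be called.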

Other observations

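The APC/C genes that separated the groups were looked at by all their probe sets, a choice made after their values were seen. Anapc5 had 6 probe sets, and in each of them every N1-IC array lay below every WT array, with log2 fold changes from -0.27 to -0.13. These probe sets are of the same gene and are not independent of each other, and some have the suffix _x_at. Anapc13, Cdc16, Cdc26 and Fbxo5, an inhibitor of the APC/C, were the other genes of the 7 beside Anapc5, Anapc10 and Anapc11, with log2 fold changes of -0.13, -0.19, -0.13 and -0.31. The second probe set of Anapc10 and both other probe sets of Anapc11 overlapped between the groups, and the 3 other probe sets of Cdc26 had positive log2 fold changes, up to 0.65. Over the list 7 of the 31 probe sets that did not represent a gene (22.6%) were lower on every N1-IC array and 1 (3.23%) was higher, against 7.6% and 6.7% of all such probe sets. Of these 7 probe sets 5 belong to Anapc5. No gene of this list passed the adjusted threshold in limma.

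The exceptions to the common order of arrays were few. Mki67 and Pttg1 were the 2 members that followed it in neither group, both lowest in N1-IC replicate 1 and WT replicate 3. Kif2c and Bub1b left it in N1-IC, and Bub3 and Kif20a in WT.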
